A study of Mus musculus with 6 samples.

Results

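The genes described here are 30 genes whose products are best known from the liver, read in RNA of the embryonic mouse stomach, which lies against the liver in the embryo. The members were given as a list of symbols, and each was read from the probe set annotated to that symbol alone with the highest mean over the 6 arrays. Of the 30 genes, 27 had such a probe set, out of 19938 genes measured in the series. Apoc2, Serpina1a and Serpina1b had only probe sets shared with other symbols, so they have no value here. The series holds 3 arrays of stomach from Nkx3.2Cre;R26-SmoM2 embryos, called SmoM2, and 3 arrays of wild type stomach, all at E13.5, a stage in embryonic days. SmoM2 is a form of Smoothened that signals without a hedgehog ligand. Here it is expressed from the Rosa26 locus in cells with a history of Cre under Nkx3.2, a gene of the stomach mesenchyme. The labels do not say whether an array stands for 1 embryo or a pool, or whether arrays came from separate litters, so the spread between arrays may be partly technical. Wild type 1 stood apart in Xist, which is expressed from the inactive X chromosome of females and was looked up after its spread was seen. Its log2 signal was 11.93, 12.37 and 11.43 in SmoM2, against 7.11, 11.94 and 11.68 in wild type. The Y-linked Eif2s3y was at 8.58, 8.95 and 9.19 in SmoM2, against 10.40, 10.09 and 8.81 in wild type. The part of embryo sex in the liver signal was not tested.

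Hepatocytes secrete most proteins of the blood plasma, among them albumin, alpha-fetoprotein, the fibrinogen chains, apolipoproteins, protease inhibitors and carriers of hormones and vitamins. The genes are switched on together in the hepatoblasts of the fetal liver by a small set of transcription factors that includes the HNF1, HNF4, FOXA and C/EBP families. Several members have other known sources in the embryo. Afp, Ttr, Rbp4 and the apolipoprotein genes Apoa1 and Apob are also made by the visceral yolk sac, and some of them by gut endoderm. The comparison asked how these transcripts varied from array to array, and whether they followed the genotype.

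The liver genes varied widely between arrays of the same genotype, and in most of them the genotypes overlapped. The mean log2 signal of the 27 genes was 8.87, 9.36 and 9.30 on SmoM2 arrays 1, 2 and 3, against 8.88, 9.11 and 9.39 on wild type arrays 1, 2 and 3. The lowest SmoM2 array and the lowest wild type array thus lay together, and so did the highest of each. The group means were 9.18 ± 0.27 in SmoM2 and 9.13 ± 0.26 in wild type (SD, n = 3 each), a difference of 0.05 that is smaller than either SD. In linear signal the mean of the members was 632, 1092 and 990.3 on the SmoM2 arrays, against 709, 863 and 1096 on the wild type arrays. In whole tissue, a change in the number of cells of a type and a change in the RNA each cell holds cannot be told apart.

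With limma, 0 of the 27 genes passed an adjusted p of 0.05 between SmoM2 and wild type, where 0.983% of all genes did (0.326% higher and 0.657% lower). At an unadjusted p under 0.05 there were 6 of 27, against 10.5% of all genes. The SmoM2 and wild type arrays did not overlap in 4 of the 27, all lower in SmoM2, against 15.7% of all genes in either direction (5.64% higher and 10.1% lower). The 27 genes had a median log2 change (SmoM2 minus wild type) of 0.10, against 0.00 over all genes. Of the 27, 21 had a positive and 6 a negative change, where 50.8% of all genes had a positive one. The median moved with single arrays: it was -0.00 without wild type 1, 0.04 without SmoM2 2, 0.21 without SmoM2 1 and 0.24 without wild type 3.

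Promoter sequences are shown for 4 members: Alb, Afp and Fgb, which had low first arrays, and Ambp, which had the lowest p of the 27 and did not pass. Each is the RefSeq window of 300 bases on GRCm38.p6, from 250 before to 50 after the gene's start, written along the gene's strand. Capitals mark GTTAAT or its reverse complement ATTAAC, an arm of the palindromic HNF1 site, and TTGCNNAA or its reverse complement TTNNGCAA, a core of C/EBP sites. The windows are chr5:90460620-90460919 (plus strand) for Alb, chr5:90490464-90490763 (plus strand) for Afp, chr3:83049814-83050113 (minus strand) for Fgb and chr4:63154123-63154422 (minus strand) for Ambp.
Alb: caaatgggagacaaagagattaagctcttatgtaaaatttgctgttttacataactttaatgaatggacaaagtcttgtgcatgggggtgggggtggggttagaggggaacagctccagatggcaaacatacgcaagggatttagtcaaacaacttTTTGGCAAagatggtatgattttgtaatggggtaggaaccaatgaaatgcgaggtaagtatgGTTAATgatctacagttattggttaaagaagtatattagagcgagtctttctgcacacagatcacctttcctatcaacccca
Afp: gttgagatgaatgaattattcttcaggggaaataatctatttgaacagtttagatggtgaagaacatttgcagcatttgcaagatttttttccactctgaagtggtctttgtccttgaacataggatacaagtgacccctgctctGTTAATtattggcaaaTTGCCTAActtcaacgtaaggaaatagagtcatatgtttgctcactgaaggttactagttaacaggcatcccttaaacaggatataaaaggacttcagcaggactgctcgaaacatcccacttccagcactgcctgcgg
Fgb: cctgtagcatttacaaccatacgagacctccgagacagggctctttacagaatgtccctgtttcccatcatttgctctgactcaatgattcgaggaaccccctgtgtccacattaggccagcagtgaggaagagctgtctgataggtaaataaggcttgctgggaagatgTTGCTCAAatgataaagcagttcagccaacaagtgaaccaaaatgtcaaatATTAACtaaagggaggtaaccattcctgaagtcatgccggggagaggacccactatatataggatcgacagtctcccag
Ambp: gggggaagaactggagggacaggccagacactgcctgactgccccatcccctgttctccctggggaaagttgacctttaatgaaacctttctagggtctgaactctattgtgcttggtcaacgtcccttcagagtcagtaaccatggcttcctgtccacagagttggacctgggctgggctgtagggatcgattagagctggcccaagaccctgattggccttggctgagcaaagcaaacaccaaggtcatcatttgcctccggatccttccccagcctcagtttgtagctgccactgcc
Alb, Afp and Fgb each hold 1 match to GTTAAT and 1 to TTGCNNAA, and Ambp holds 0 of both. Members without low first arrays in both groups also held matches, Vtn and Ftcd to GTTAAT and Ahsg, Apob and Rbp4 to TTGCNNAA. Among members with low first arrays in both groups, Itih2, Apoa2, Hpx and Serpinc1 had a match to TTGCNNAA and none to GTTAAT. F2 had a match to GTTAAT and none to TTGCNNAA. Of the 30 members, 23 had a window among those kept for this count, and 3 of these had a second start, giving 26 windows. Some windows were left out before counting, so a member not counted here does not necessarily lack a window or a match. GTTAAT was found on either strand in 10 of the 26 (38.5%), against 7.1% of all 32851 windows kept. TTGCNNAA was found in 13 of the 26 (50%), against 10.8% of all windows. The full palindrome GTTAATNATTAAC was in 0 of the 26 and in 3 of all windows. These are matches of letters and no evidence of binding, and the members were chosen as liver genes, so the shares describe the list only.

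Among plasma carriers, Alb, which encodes serum albumin, had the widest spread of the 27 genes. Its log2 signal was 11.19, 12.58 and 12.31 on the SmoM2 arrays, against 10.31, 11.62 and 12.31 on the wild type arrays. The first array of each group was the low one, and the groups overlapped. The highest array was 4.82-fold above the lowest, while SmoM2 stood 1.53-fold above wild type (log2 change 0.61, SE 0.48, adjusted p = 0.752). Only 2 of all 19938 genes had a larger SD within genotype than Alb.

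Afp, the fetal counterpart of albumin and its neighbour on the chromosome, had the same order of arrays within each genotype, without a shift between genotypes. It was at 9.90, 11.23 and 11.01 in SmoM2, against 9.68, 11.10 and 11.27 in wild type. The first array of each group again lay below the other 4 arrays. The log2 change was 0.03 (SE 0.43, adjusted p = 0.993). Its SD within genotype ranked 6 among all genes, counted from the largest.

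Serpina6, which encodes the corticosteroid carrier transcortin, was at 10.13, 11.71 and 11.43 in SmoM2, against 10.45, 11.17 and 11.60 in wild type. Each group had 1 low array, which was its first, and the means of 11.09 ± 0.85 in SmoM2 and 11.07 ± 0.58 in wild type (SD, n = 3 each) differed by less than either SD. Trf, the iron carrier transferrin, was at 10.36, 11.21 and 11.12 in SmoM2, against 10.11, 10.60 and 10.95 in wild type (log2 change 0.34, SE 0.24, adjusted p = 0.718). Transferrin showed the low first arrays as well, with wild type 2 between them and the other 3.

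**Figure D1:**
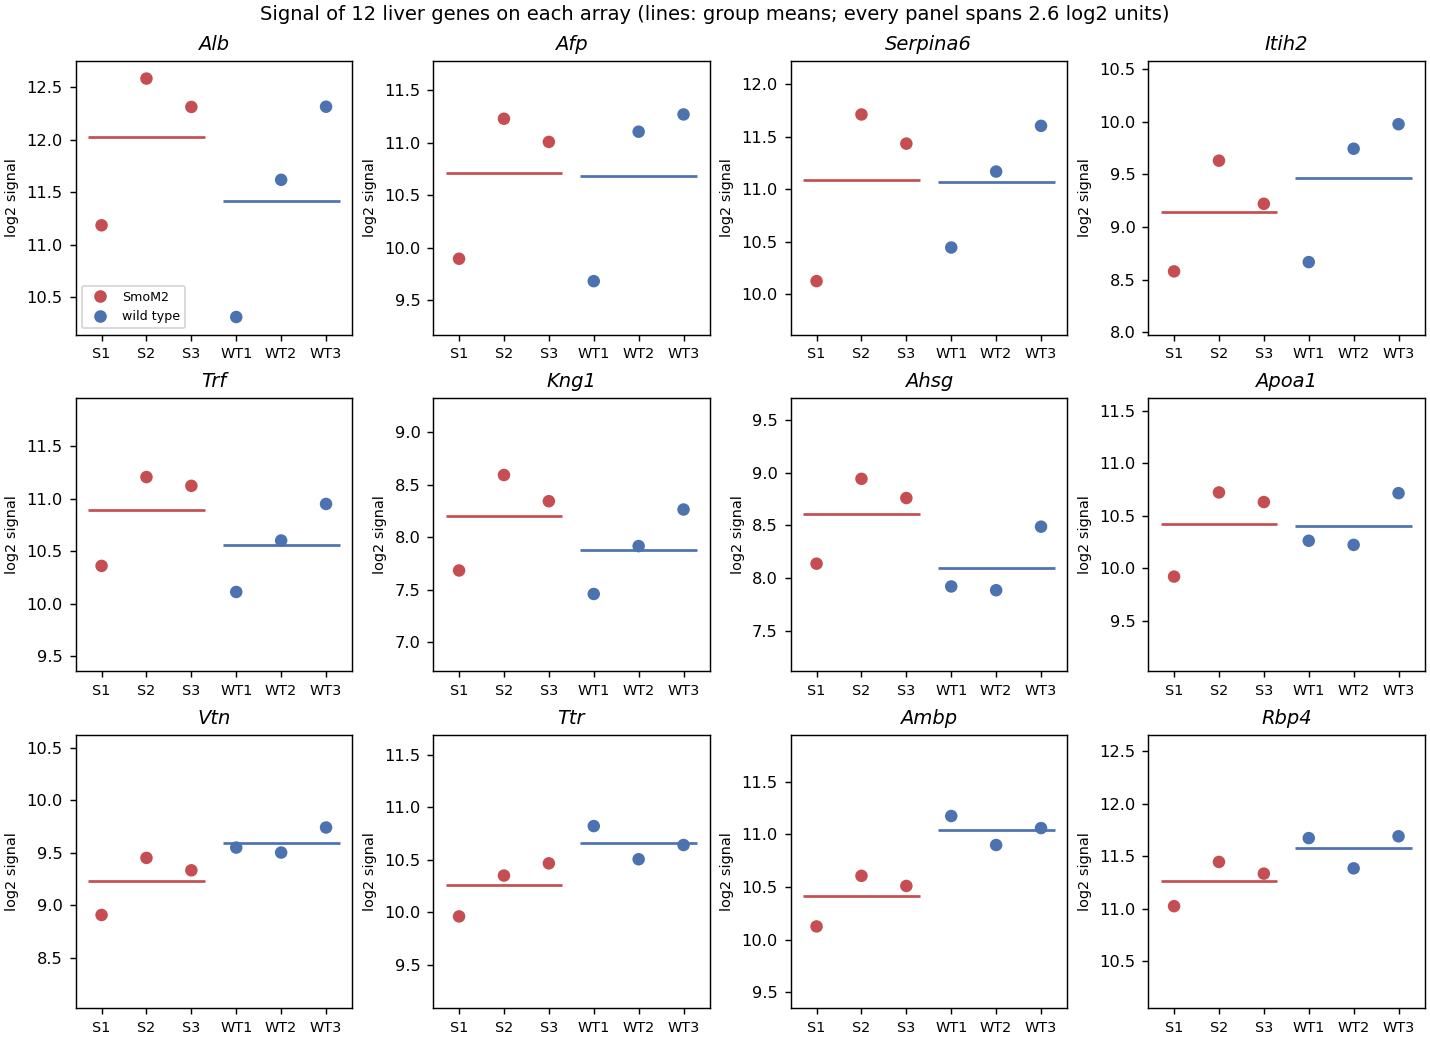
Log2 signal (vertical axis, every panel spans 2.6 log2 units) of 12 liver genes on the 6 arrays (horizontal axis: S for SmoM2, WT for wild type). Points are arrays and lines are group means. In Alb, Afp, Serpina6, Itih2, Trf and Kng1 the first array of each group is the lowest of its group, while Ttr, Ambp and Vtn have all SmoM2 points below all wild type points.

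Itih2 and Kng1 also had low first arrays. Itih2, a heavy chain that is bound to hyaluronan in the matrix, was at 8.58, 9.63 and 9.22 in SmoM2, against 8.67, 9.74 and 9.98 in wild type (log2 change -0.32, SE 0.34, adjusted p = 0.826). Kng1, the precursor of bradykinin, was at 7.68, 8.59 and 8.34 in SmoM2, against 7.46, 7.92 and 8.26 in wild type (log2 change 0.33, adjusted p = 0.727). In both the groups overlapped. Kng1 is close in sequence to Kng2, so the probe sets of the pair may not be separate. Serpinc1, which encodes antithrombin, and the clotting genes F2 and Plg (prothrombin and plasminogen) had log2 changes of 0.14, 0.01 and 0.16, with the first array lowest in both groups.

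Ahsg, which encodes the mineral-binding protein fetuin-A, differed from this order in wild type. It was at 8.14, 8.94 and 8.76 in SmoM2, against 7.92, 7.88 and 8.49 in wild type, so that 2 wild type arrays were low and SmoM2 1 lay below wild type 3. Its log2 change was 0.52 (SE 0.21, adjusted p = 0.425), with 1.43-fold more signal in SmoM2. Fetub, its relative and neighbour, was dim, with a mean of 7.46 (log2 change 0.05).

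The 3 fibrinogen genes, whose products form one clotting protein, all had the first array lowest in both groups. Fgb spanned 0.79 log2 units over the 6 arrays, Fgg 0.74 and Fga 0.47. Their log2 changes with genotype were 0.08, 0.16 and 0.17, with adjusted p of 0.948, 0.851 and 0.676. The SD within genotype was 0.39 in Fgb, 0.34 in Fgg and 0.16 in Fga. It exceeded the change with genotype in Fgb and Fgg and lay near it in Fga.

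The apolipoproteins carry lipid in the blood. Apoa1 was at 9.92, 10.72 and 10.63 in SmoM2, against 10.26, 10.22 and 10.72 in wild type (log2 change 0.02, SE 0.20, adjusted p = 0.986). Here SmoM2 1 was the lowest array and wild type 1 and 2 lay close together. Apoa2 had its low arrays first in both groups and spanned 0.70 log2 units. Apoc3 spanned 0.31, while Apoh and Apom were at the dim level described below. Apob spanned 0.35, with wild type 2 highest and SmoM2 2 lowest, and its groups did not overlap (log2 change -0.20, SE 0.07, adjusted p = 0.361).

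The 4 members without overlap of the groups were Ambp, Ttr, Vtn and Apob, and 4 of 27 is near the share of all genes in either direction (15.7%). Ambp, which encodes alpha-1-microglobulin and bikunin, was at 10.13, 10.61 and 10.51 in SmoM2, against 11.18, 10.90 and 11.06 in wild type. Unlike Alb, Ambp had its highest value on wild type 1. Wild type stood 1.55-fold above SmoM2 (log2 change -0.63, SE 0.13), which missed the threshold (adjusted p = 0.0572, the lowest of the 27). It passed in 7 of 18 alternative fits, among them those without SmoM2 2 (adjusted p = 0.0353), among brighter probe sets (0.0353), with arrays centred on the median (0.0414) and with an intensity trend (0.0228). Leaving out other arrays gave adjusted p up to 0.254.

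Ttr, the thyroid hormone carrier transthyretin, was at 9.96, 10.35 and 10.47 in SmoM2, against 10.82, 10.50 and 10.64 in wild type (log2 change -0.40, SE 0.13, adjusted p = 0.285). The groups were narrowly apart, and wild type 1 was again the highest array. Rbp4, which carries retinol in a complex with transthyretin, was at 11.02, 11.44 and 11.33 in SmoM2, against 11.67, 11.38 and 11.69 in wild type (log2 change -0.31, SE 0.12, adjusted p = 0.378). Its groups overlapped through SmoM2 2 and wild type 2. Vtn, the adhesion protein vitronectin, was at 8.91, 9.45 and 9.33 in SmoM2, against 9.55, 9.50 and 9.74 in wild type (log2 change -0.37, SE 0.13, adjusted p = 0.338). Its groups lay side by side without overlap.

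**Figure D2:**
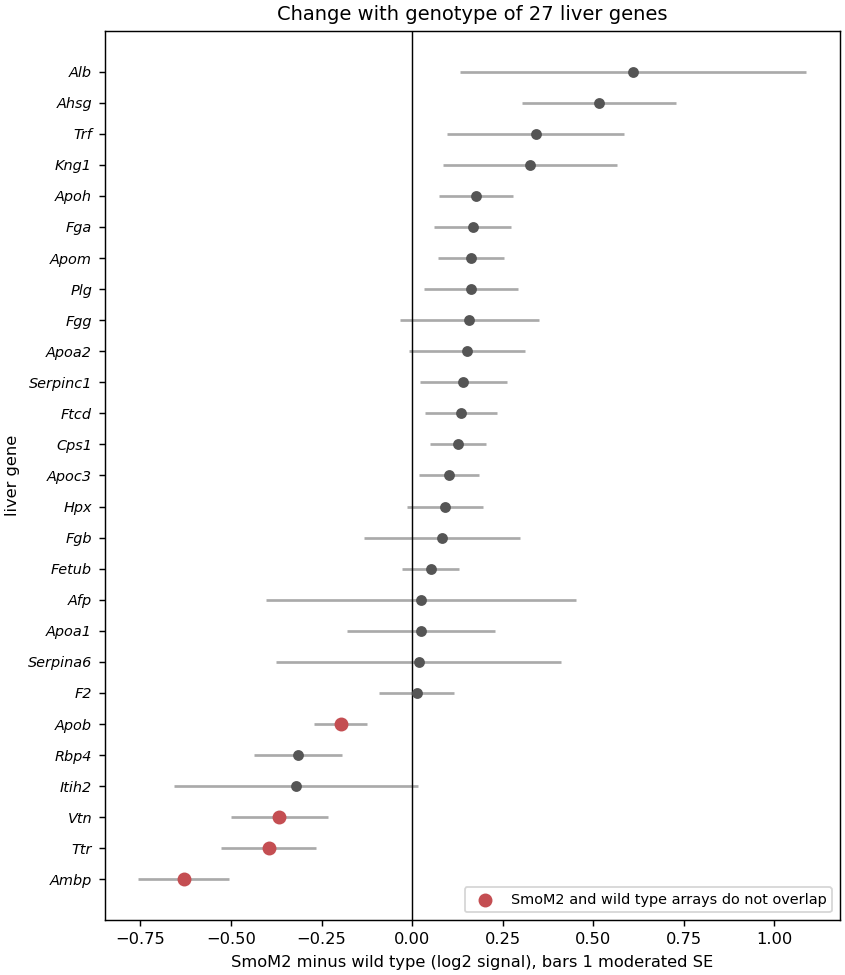
Log2 change of the 27 liver genes (horizontal axis, SmoM2 minus wild type) with bars of 1 moderated SE, sorted from the highest change at the top. Red points mark the 4 genes whose groups do not overlap (Ambp, Ttr, Vtn and Apob), all below 0. Alb has the largest positive change, 0.61, with an SE of 0.48.

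The spread within genotype was large in many of these genes beside that of all genes. The SD within genotype, pooled over the 2 groups with 4 degrees of freedom, lay above the 95th percentile of all genes in 14 of the 27 members, where 5% of genes do by definition. It lay above the 99th percentile in 10 members: Alb, Afp, Serpina6, Itih2, Trf, Kng1, Fgb, Ahsg, Apoa1 and Fgg. The median SD of the members was 0.21 log2 units, against 0.10 over all genes. Among members above the median signal of all probe sets (8.58), 11 of 14 (78.6%) lay above that percentile, against 3.89% of all genes above that signal. Of the 13 members below that signal, 3 lay above the percentile. For scale, 95% of 1194 olfactory and vomeronasal receptor genes, which the stomach is not known to use, had a mean signal below 8.05, and 22 of the 27 members lay above it. The 5 others were Kng1, at 8.04 over the 6 arrays, Cps1, Apom, Apoh and Fetub, and a small span in such dim probe sets does not show a steady transcript.

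**Figure D3:**
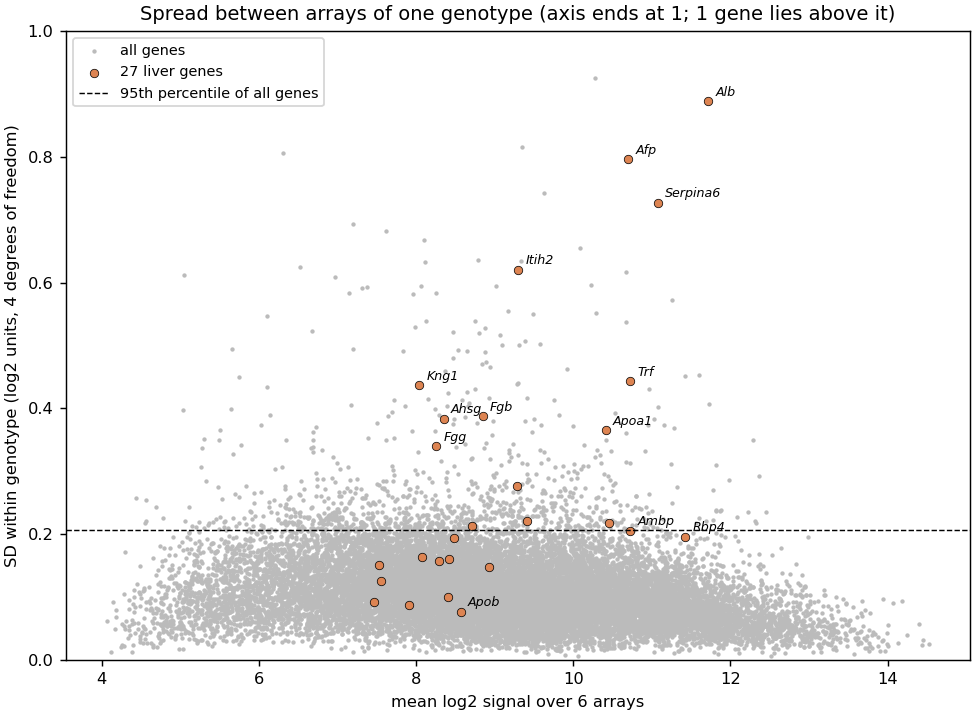
SD within genotype (vertical axis, log2 units, ending at 1, with 1 gene above it) against mean log2 signal over the 6 arrays (horizontal axis) for all 19938 genes in grey and 27 liver genes in orange. The dashed line is the 95th percentile of all genes, and 14 of the 27 liver genes lie above it, with Alb, Afp, Serpina6 and Itih2 the highest.

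The low arrays were the same in most members. The first array was the lowest of its group in both genotypes in 16 of the 27 genes (59.3%), against 8.31% of all genes. Wild type 1 was the lowest of all 6 arrays in 14 members (51.9%), against 9.95% of all genes. SmoM2 1 was the lowest in 8 (29.6%), near its share of 29.4% of all genes. SmoM2 2 was the highest array in 10 members (37.0%, against 13.8% of all genes). Wild type 3 was the highest in 9 (33.3%, against 16.6% of all genes). Of the 16 genes, 10 had an SD above the 95th percentile, and their changes with genotype ran from -0.32 to 0.61. The 11 other members include Ambp, Ttr, Rbp4, Vtn and Apob. The shared replicate number carries no meaning that the labels state. Without wild type 1 the log2 change of Alb was 0.06 and that of Afp -0.48. Among the SmoM2 arrays, SmoM2 1 had the lowest values of both genes.

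**Figure D4:**
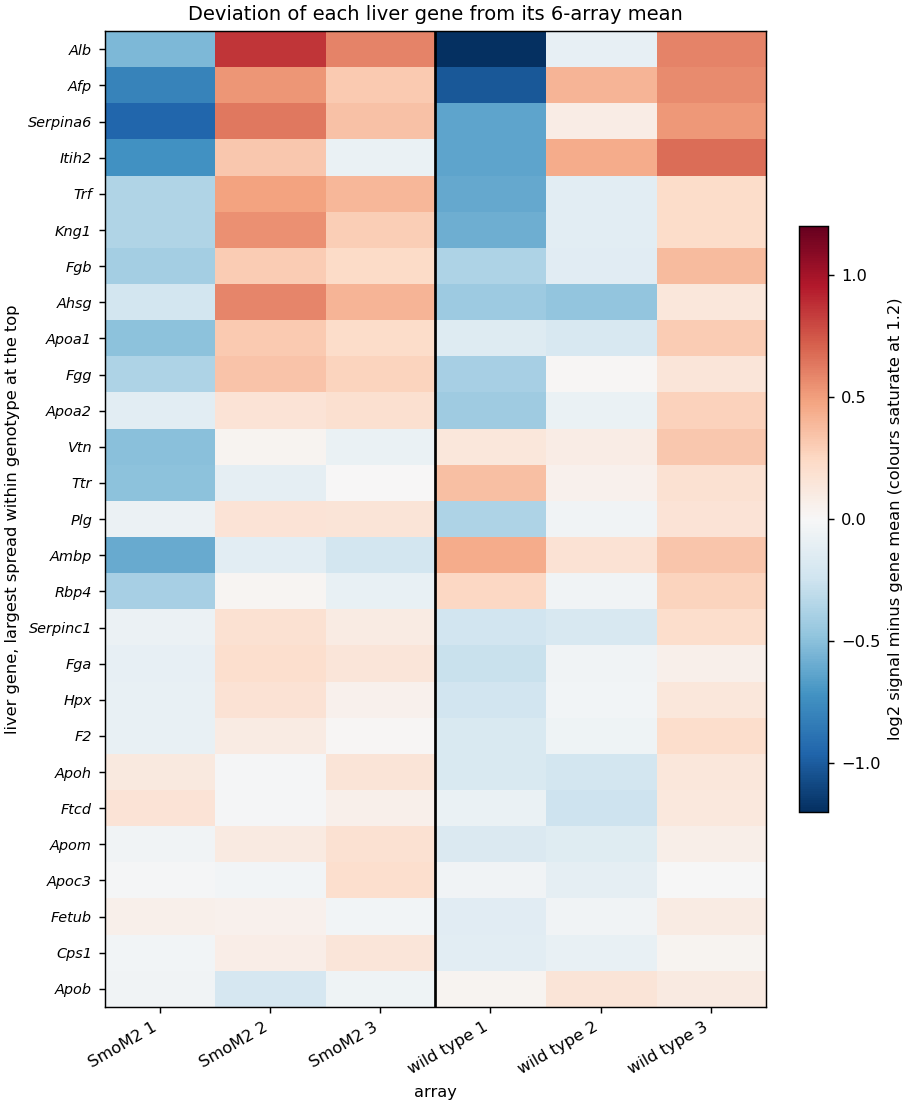
Deviation of each of the 27 liver genes (down the page, largest spread within genotype at the top) from its mean over the 6 arrays (across: SmoM2 1 to 3, then wild type 1 to 3), in log2 units, with blue below and red above. SmoM2 1 and wild type 1 are blue in most of the upper 11 genes, while Ambp, Ttr and Rbp4 are blue on SmoM2 1 and red on wild type 1.

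Over all 19938 genes the arrays grouped differently. SmoM2 1 and wild type 3 deviated from their group means together (r = 0.52 across genes, which are not independent), and SmoM2 1 and wild type 1 did not (r = -0.10). The members placed these arrays on opposite sides: SmoM2 1 lay below and wild type 3 above its group mean in 22 of the 27, against 19.9% of all genes.

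Leaving out both first arrays, an alternative chosen after the data were seen, left SmoM2 2 and 3 against wild type 2 and 3. In this comparison 0 of 27 members passed, where 0.0652% of all genes did (7 of 27 at an unadjusted p under 0.05, against 6.38% of all genes), and 12 did not overlap, 7 higher and 5 lower in SmoM2, where 33.9% of all genes did not overlap. Without SmoM2 1 alone there were 11, 7 of them higher in SmoM2 (26% of all genes did not overlap). Without wild type 3 alone there were 12, 8 of them higher in SmoM2 (30.5% of all genes). Leaving out any other single array gave 4 or 5, all lower in SmoM2, where 20.1% to 33.8% of all genes did not overlap. The count of members without overlap thus rested on which arrays were used. Fewer arrays also raised the share over all genes, which was 15.7% with all 6 arrays.

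A further list of hepatocyte genes was read on the same arrays. Of 43 further hepatocyte genes with a probe set of their own, 0 passed the threshold and 2 had an unadjusted p under 0.05. The median log2 change was 0.06. Their mean log2 signal was 7.69, 7.61 and 7.70 in SmoM2, against 7.58, 7.56 and 7.75 in wild type, so the list mean lay below the 8.05 of the receptor genes and was not lowest on SmoM2 1. SmoM2 1 was the highest of the 6 arrays in 16 of the 43 (37.2%) and the lowest in 3, and 6 of the 43 had an SD within genotype above the 95th percentile. The largest changes were those of Fah, an enzyme of tyrosine breakdown (-0.34, adjusted p = 0.324), and Serpina1c, an alpha-1-antitrypsin gene (-0.26, adjusted p = 0.745). The first array was lowest in both groups in 7 of 43 (16.3%), against 8.31% of all genes. Of these 7, named after their values were seen, Serpind1 (heparin cofactor II) was at 8.98, 9.47 and 9.25 in SmoM2, against 8.80, 9.25 and 9.64 in wild type. Serpinf2, the inhibitor of plasmin, was at 9.60, 10.07 and 10.13 in SmoM2, against 9.79, 10.11 and 10.23 in wild type. Both spanned less than Afp.

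Transcription factors of the liver were read as a further list. Of 14 measured, 0 passed and 7 had groups that did not overlap, all lower in SmoM2. Groups did not overlap in 15.7% of all genes in either direction, and in 10.1% with SmoM2 lower. Prox1, a homeobox gene of hepatoblasts, pancreas and lymphatic vessels, had a log2 change of -0.44 (adjusted p = 0.158) and Onecut1, which acts in liver and pancreas, one of -0.36 (adjusted p = 0.115). Hnf4a, also a gene of gut epithelium, was at 9.65, 9.71 and 9.76 in SmoM2, against 10.01, 9.82 and 10.14 in wild type, so its low arrays were the SmoM2 arrays and not the first arrays. Cebpa was at 8.74, 8.66 and 8.85 in SmoM2, against 8.57, 8.66 and 8.83 in wild type. Hnf4a and Cebpa were named after their values were seen.

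Markers of other tissues are given beside these values, and their part in the liver signal was not tested. For scale, 0.983% of all genes passed the threshold, 0.326% higher and 0.657% lower in SmoM2. In the list of endoderm and yolk sac genes 1 of 17 fell, Sptssb, a subunit of an enzyme of sphingolipid synthesis (log2 change -0.93, adjusted p = 0.0164), and Dab2, an endocytic adaptor, was at -0.28 (adjusted p = 0.181). Of 17 erythroid genes, which the fetal liver also expresses as a site of blood formation, 0 passed. Of these genes, 16 had a negative change, where 50.8% of all genes had a positive one. Groups did not overlap in 5 of the 17, all lower in SmoM2, where 10.1% of all genes were lower without overlap. The mean log2 signal of the erythroid genes was 10.12, 10.11 and 10.23 in SmoM2, against 10.27, 10.39 and 10.28 in wild type. The erythroid list thus spanned less than the liver genes and was not low on both first arrays. Hbb-bh1, an embryonic globin, had a log2 change of -0.38 (adjusted p = 0.215) and Alas2, which starts haem synthesis in red cells, one of -0.37 (adjusted p = 0.0928).

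Part of the pancreas and epithelium lists fell in SmoM2, where 0.657% of all genes fell and 0.326% rose past the threshold. In the pancreas list 2 of 17 fell, the enzyme gene Cpa1 and the hormone gene Gcg. The list as a whole did not fall: 11 of the 17 had a positive change, where 50.8% of all genes did, and the median change was 0.03. Groups did not overlap in 5 of the 17, with 2 higher and 3 lower in SmoM2, where 15.7% of all genes did not overlap. Cpa1 was at 9.97, 9.94 and 10.23 in SmoM2, against 11.43, 10.73 and 10.92 in wild type (log2 change -0.98, adjusted p = 0.0258). As in Ambp and Ttr, wild type 1 was the highest array. Of 21 epithelial genes 10 fell and 0 rose, with a mean log2 signal of 9.57, 9.62 and 9.66 in SmoM2, against 10.03, 9.91 and 10.03 in wild type. Esrp1, a splicing factor, and Cdh1, which encodes E-cadherin, had log2 changes of -0.68 and -0.58 (adjusted p = 0.0245 and 0.0111). The labelled tissue was checked with genes of the stomach, among them the mesenchymal factor Barx1 at 12.53, 12.67 and 12.62 in SmoM2, against 12.72, 12.58 and 12.42 in wild type. Of 13 stomach genes 3 rose and 1 fell, among them Foxf2 (0.91, adjusted p = 0.00197) and Cym (-0.81, adjusted p = 0.00373).

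**Figure D5:**
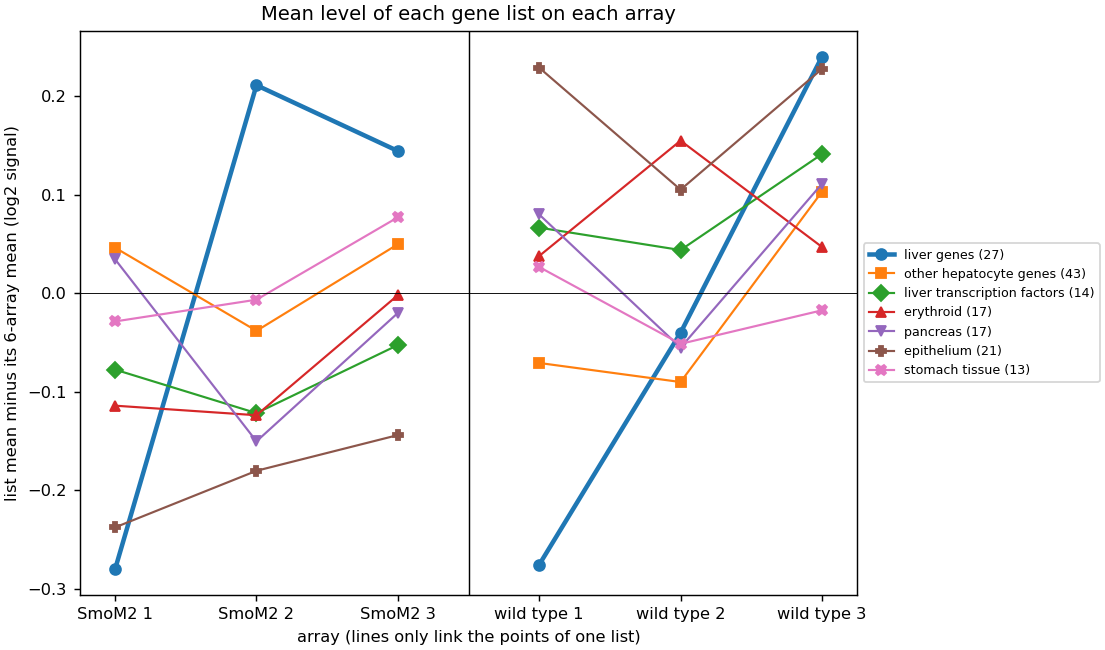
Mean log2 signal of 7 gene lists (vertical axis, minus the list's own mean over the 6 arrays) on each array (horizontal axis, SmoM2 1 to 3, then wild type 1 to 3). The number of genes is in the legend, and lines only link the points of a list. The liver genes are low on SmoM2 1 and wild type 1, while the epithelial genes are low on the 3 SmoM2 arrays.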

How the data were processed

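RNA of whole stomach was measured on Affymetrix arrays, from 6 ug of total RNA per the labels' protocols. The authors deposited log2 signals for 35556 probe sets. Per the submitters' processing notes the tools were RMA and affy, of unstated version. That method (background correction, quantile normalization, probe summary) pulls arrays to a common distribution and compresses small signals. Array medians ran from 8.56 to 8.62. The number of arrays limits the precision. Gene symbols came from the platform annotation, and sequences from RefSeq tables.

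Groups came from the sample titles. SmoM2 was compared with wild type with R 4.3.3 and limma 3.58.1 (two-sided moderated test) over 19938 genes with Benjamini-Hochberg adjustment and a threshold of 0.05. SE is the moderated standard error. The smallest two-sided p of an exact permutation test is 0.1 here. The fit was tested on simulated data. Values are given on every array for the members with the highest signal, the widest range or the largest changes. Of the other lists, up to 4 members past the threshold, or the 2 largest changes, were named. The members, lists and rules were chosen with earlier results of these data known. Deviations from group means of same-numbered arrays correlated at -0.10, 0.52 and 0.06. Whether the replicate numbers pair the arrays is not known, and the comparison reported did not pair them.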

Additional observations from a re-analysis of the deposited data

How the results depend on the processing

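The difference in liver level between SmoM2 and wild type, 0.05, moved by less than 1 SD of the arrays (0.26) in 14 alternatives. That SD is larger than the difference itself, and the sign was not stable. It was -0.04 without SmoM2 2, -0.01 without SmoM2 3, -0.07 without wild type 1 and -0.03 in the filter on dim probe sets. In the other alternatives it was positive, up to 0.20 without SmoM2 1. The median change of the members also moved by less than 1 SD in 17 alternatives, with a highest value of 0.28 under array weights. That median was -0.02 with the Alb signal as a covariate. The count of genes past the threshold, 196, was 120 with centring on the 75th percentile, 336 with an intensity trend, 13 without both first arrays and 66 with the Alb signal as a covariate, of which 65 were among the 196; that fit called 1 of 26 members, Itih2 (-0.74, adjusted p = 0.0254). The last 2 were chosen after seeing the data. Leaving out 1 array at a time gave 32 to 247 genes, 0 to 1 members past the threshold and 4 to 12 members without overlap (32 genes without SmoM2 3, 51 without wild type 1, 62 without wild type 2 and 80 without SmoM2 1). Ambp was the 1 member past it without SmoM2 2, in the filter on dim probe sets, after repeated quantile normalization, with centring on the median and with the trend. Members without overlap numbered 2 with centring on the 75th percentile and 12 without both first arrays.

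With the replicate number as a block, 698 genes (3.5%) and 6 of 27 members passed: Alb, Ahsg and Trf higher and Ttr, Ambp and Vtn lower in SmoM2 (adjusted p from 0.00094 to 0.0461), and 1 other hepatocyte gene. The labels do not say that the number marks a shared source, and not every array correlated best with its own number. Array weights, which did not reach their convergence tolerance and gave SmoM2 3 a weight of 6.02 and SmoM2 1 one of 0.327, passed 4110 genes (20.6%), 17 members and 7 other hepatocyte genes.

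Signs turned in 4 named members whose changes did not pass in the comparison reported. Leaving out 1 array at a time, Afp ran from -0.48 (without wild type 1) to 0.43 (without SmoM2 1), Apoa1 from -0.12 (without SmoM2 2) to 0.28 (without SmoM2 1) and Serpina6 from -0.30 (without wild type 1) to 0.50 (without SmoM2 1). Afp was at -0.069 without both first arrays. Itih2 had 0.15 with array weights. The cause was not tested.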

Other observations

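Among the 25 genes with the largest SD within genotype were 4 members, Alb, Afp, Serpina6 and Itih2, and 14 genes of microRNAs and small nucleolar RNAs. All 14 had SmoM2 2 highest in SmoM2 and wild type 3 lowest in wild type, an order that 0 of the 4 members had. Rabl2, a small GTPase gene that is no liver marker, had the order of low first arrays: 9.28, 10.54 and 10.50 in SmoM2, against 9.39, 10.46 and 10.34 in wild type. Hoxd10, a homeobox gene of posterior body regions, was low on wild type 1 alone: 10.52, 10.58 and 10.72 in SmoM2, against 8.45, 10.68 and 10.73 in wild type. Both were chosen after their values were seen.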
